A study of Xenopus laevis with 45 samples.

Results

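The hypothalamic and pituitary hormone genes described here are the rows named ghrh, crh, pomc, cga or prl once the homeolog ending (.L or .S) and a trailing digit are removed. They came to 10 of the 45038 genes in the count tables: ghrh.L, ghrh.S, pomc.L, pomc.S, cga.L, cga.S, prl.1.L, prl.1.S, prl.2.L and prl.2.S. No row matched crh, which is not analysed here. The set was selected on the level of ghrh, which was seen to be higher with a control morpholino than in uninjected embryos, and the question was whether the other hormone genes share that rise. The values of ghrh in the comparisons of control morpholino with uninjected embryos are therefore given as a description, with no test. So are those of ERFE morpholino against control morpholino and against uninjected embryos.

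GHRH is a peptide made by hypothalamic neurons that acts on the somatotropes of the pituitary and drives the release of growth hormone. POMC is the precursor of ACTH, the hormone that stimulates steroid synthesis in adrenal tissue, and of the melanotropins, which disperse melanophore pigment in amphibian skin. CGA is the alpha subunit shared by the gonadotropins and thyrotropin, and PRL is prolactin. The .L and .S copies stem from the genome duplication of Xenopus laevis, and reads of similar copies may be split uncertainly between them.

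The study injected Xenopus laevis embryos at the 8-cell stage into the 4 vegetal blastomeres and took whole embryos at stages 35/36, 37/38 and 41 for RNA-seq of total RNA. The 5 conditions were ERFE-MO1 at 10 ng, ERFE-MO2 at 20 ng (both antisense morpholinos against erythroferrone, gene fam132b), 10 ng of a standard control morpholino (cMO), 20 ng of cMO, and no injection, each with 3 libraries per stage. Only vegetal cells received a morpholino, and the embryos were grown in 0.1x MBS. The labels do not say whether the libraries of a group came from separate clutches or embryo pools. A p-value therefore measures the spread between these libraries, which may be technical. Libraries with the same replicate number deviated together within a stage, and the main test does not use this pairing. Results with the replicate number as a block stand beside it for many comparisons. In whole embryos, fewer cells of a type and less RNA per cell cannot be told apart.

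Library totals ran from 19342567 to 41922031 counts with a median of 32828061, so that 3 counts, the limit a count of 0 allows, corresponded to 0.0709 to 0.155 CPM, the counts scaled to library size. Summed over marker lists, neuronal genes were at 1190 to 1650 CPM, skeletal muscle at 10400 to 19100, epidermis at 5190 to 21000, eye at 112 to 448, liver at 499 to 3010 and blood at 63.2 to 276 over the 45 libraries. The ERFE gene fam132b.L had 27 to 346 counts per library; a morpholino can block translation or splicing without lowering an mRNA, so this level does not check the knockdown. The library labelled ERFE MO2 stage 35/36 replicate 1 was close to that labelled ERFE MO1 stage 37/38 replicate 2, with a chi-square per gene of 1.22 (29249 genes); of the 990 library pairs the next closest had 3.95, and no pair of 1 group was below 10.8. Tests of hormone genes and rpn2 that involve ERFE MO2 or a pooled ERFE group are therefore also given without that library where it changes them most. The gene list results, and the ghrh means, counts and ratios of ERFE MO2 at stage 35/36, include it.

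Both ghrh copies stood higher in every cMO library than in any other library. At stage 35/36, ghrh.L was at 2.54, 1.5 and 2.17 CPM with 10 ng cMO and at 4.55, 2.0 and 3.12 CPM with 20 ng cMO, against 0.0756, 0.197 and 0.143 CPM in uninjected embryos. At stage 37/38 it was at 2.48, 2.26 and 2.52 CPM with 10 ng cMO and at 4.57, 2.25 and 2.88 CPM with 20 ng cMO, against 0.0759, 0.181 and 0.135 CPM in uninjected embryos. At stage 41 it was at 2.45, 2.27 and 2.0 CPM with 10 ng cMO and at 4.21, 1.78 and 2.75 CPM with 20 ng cMO, against 0.262, 0.0265 and 0.0623 CPM in uninjected embryos. The lowest cMO library thus lay several-fold above the highest uninjected one at each stage, and replicate 1 of 20 ng cMO was the highest library at every stage. Over all genes tested, 6.01% of gene and comparison pairs had groups that did not overlap in these 6 comparisons; nothing is read from this for ghrh, whose values chose it.

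The counts behind these levels were small outside the cMO groups. Over the 3 stages, ghrh.L had 195, 234 and 238 counts with 10 ng cMO and 322, 307 and 309 counts with 20 ng cMO, against 13, 11 and 10 counts in uninjected embryos. Scaled to library size, the ratio of these counts, cMO over uninjected, was 14.4, 18.3 and 21.7 with 10 ng and 23.3, 24.6 and 29.2 with 20 ng at stages 35/36, 37/38 and 41.

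ghrh.S was also high in the cMO groups, at lower counts than ghrh.L there. At stage 35/36 it was at 2.28, 0.69 and 1.40 CPM with 10 ng cMO and at 2.41, 1.21 and 2.17 CPM with 20 ng cMO, while all 3 uninjected libraries had 0 counts. Against the limit of 3 counts over the uninjected group, it was at least 42.9-fold higher with 10 ng cMO and at least 60.6-fold higher with 20 ng cMO. At stage 37/38 ghrh.S was at 1.92, 1.54 and 1.55 CPM with 10 ng cMO and 3.35, 1.43 and 2.32 CPM with 20 ng cMO, against 0.038, 0.0362 and 0.102 CPM in uninjected embryos, and at stage 41 at 1.66, 1.13 and 0.734 CPM with 10 ng cMO and 3.04, 1.15 and 1.12 CPM with 20 ng cMO, against 0, 0.106 and 0.125 CPM in uninjected embryos. At stage 37/38 the uninjected group had 5 counts of ghrh.S and the ratio, cMO over uninjected, was 28 with 10 ng and 39.6 with 20 ng; at stage 41 the uninjected group had 8 counts and the ratios were 14.5 and 22.4. The highest uninjected library had 0.125 CPM and the lowest cMO library 0.69 CPM of ghrh.S over all stages, so the groups did not overlap.

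**Figure D1:**
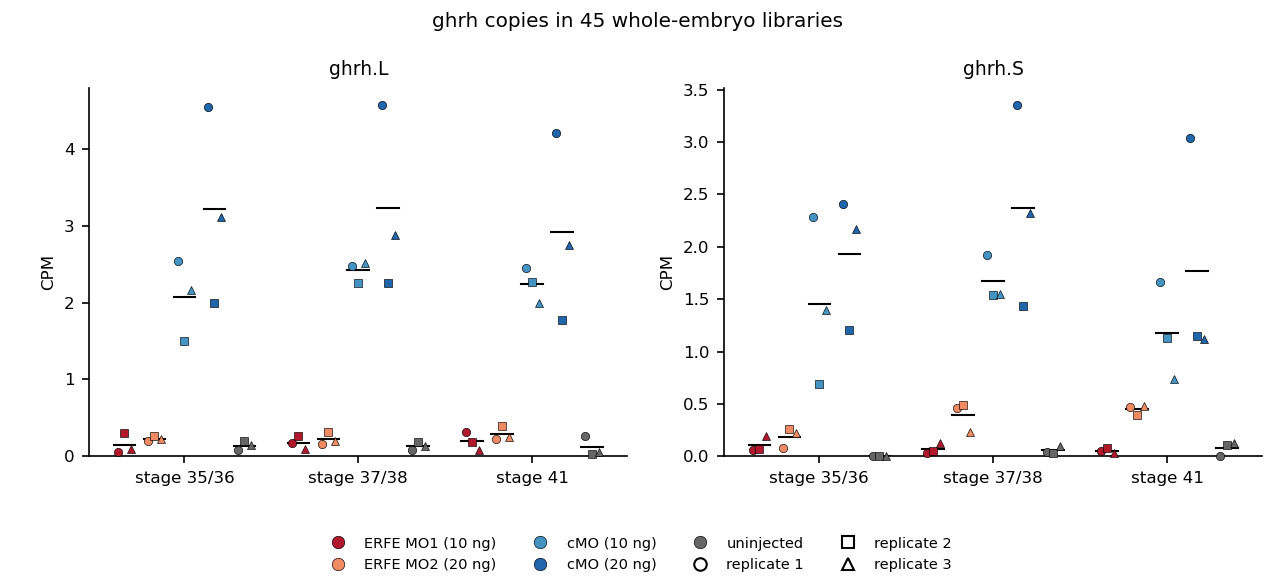
ghrh.L and ghrh.S in each of the 45 libraries, in CPM, by stage and condition; points are libraries, with a symbol per replicate number, and short lines are group means. All 18 cMO libraries lie above the 27 others for both copies, and the highest other library, of ghrh.S with ERFE MO2, is at 0.493 CPM.

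In embryos with an ERFE morpholino, ghrh.L lay far below the matched cMO and at 1.04 to 2.81 times the uninjected level. At stage 41, ghrh.L was at 0.312, 0.189 and 0.0882 CPM with ERFE MO1 and at 0.22, 0.391 and 0.257 CPM with ERFE MO2, and at stage 35/36 at 0.0579, 0.305 and 0.0958 CPM with ERFE MO1 and 0.202, 0.258 and 0.222 CPM with ERFE MO2. At stage 37/38 it was at 0.173, 0.26 and 0.0981 CPM with ERFE MO1 and 0.154, 0.311 and 0.205 CPM with ERFE MO2. The highest of these values was the 0.391 CPM of ERFE MO2 replicate 2 at stage 41. The ratio of ERFE MO1 to 10 ng cMO was 0.072, 0.0773 and 0.09 over the 3 stages, and that of ERFE MO2 to 20 ng cMO was 0.067, 0.0703 and 0.0963. No ERFE morpholino library reached the lowest library of its matched cMO group. Over all genes tested, 11.8% of pairs had groups that did not overlap in these 6 comparisons of ERFE morpholino with cMO, and again nothing is read from it for ghrh. At every stage the order of the group means of ghrh.L was 20 ng cMO, 10 ng cMO, ERFE MO2, ERFE MO1 and uninjected. At stage 35/36 these means were 3.22 ± 1.28, 2.07 ± 0.526, 0.228 ± 0.0285, 0.153 ± 0.133 and 0.139 ± 0.0608 CPM (SD, n = 3 each). The libraries of neighbouring groups in this order overlapped at every stage, except those of 10 ng cMO and ERFE MO2.

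ghrh.S had more counts with ERFE MO2 than with ERFE MO1. With ERFE MO2 it had 15, 43 and 43 counts at stages 35/36, 37/38 and 41, with ERFE MO1 10, 7 and 5 counts, and in uninjected embryos 0, 5 and 8 counts. At stage 41 these were 0.472, 0.391 and 0.481 CPM with ERFE MO2, 0.052, 0.0757 and 0.0294 CPM with ERFE MO1 and 0, 0.106 and 0.125 CPM in uninjected embryos, so that the ERFE MO2 libraries lay above all ERFE MO1 and uninjected libraries and below all cMO libraries of that stage; over all genes 6.25% lay higher without overlap in ERFE MO2 than in uninjected embryos at stage 41. The ratio of ERFE MO2 to uninjected was 6.53 at stage 37/38 and 5.4 at stage 41, while that of ERFE MO1 was 1.09 and 0.611. At stage 35/36, against the limit of 3 counts over the uninjected group, the ratio was at least 5.08 with ERFE MO2, the doubted library included. With ERFE MO1 it was at least 3.21. The uninjected libraries also served to choose ghrh, so nothing is read from these ratios or the lack of overlap. Summed over stages, the .L copy made up 42% of the ghrh counts with ERFE MO2, the doubted library included (exact binomial 95% interval 34.5 to 49.7). It made up 60.7% with 20 ng cMO (58.2 to 63.2), 71.1% with ERFE MO1 (59.5 to 80.9) and 61.1% with 10 ng cMO (58.2 to 64). In uninjected embryos it was 72.3% (57.4 to 84.4). These intervals cover counting error and not the spread between libraries. With ERFE MO2, ghrh.L and ghrh.S had 20 and 15 counts at stage 35/36, where the doubted library is included. They had 25 and 43 counts at stage 37/38 and 28 and 43 at stage 41.

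The amount of cMO and the stage were not used to choose ghrh. Between 20 ng and 10 ng cMO, the log2 differences of the ghrh copies were 0.38 to 0.64 over the 3 stages, none past the test. All were higher with 20 ng, and their 95% intervals, from -0.5 to 1.52, include both no change and a rise. Scaled to library size, the count ratios of 20 ng to 10 ng were 1.62, 1.34 and 1.35 for ghrh.L. For ghrh.S they were 1.41, 1.41 and 1.54. The lowest limit from counting error was 1.13, which leaves out the spread between libraries. A difference by amount pooled over stages was not tested. Of all 8 hormone genes tested at 3 stages, 0 of 24 pairs were called at an adjusted p under 0.05 by edgeR's quasi-likelihood test, with 0 at an unadjusted p under 0.05; DESeq2 called 0, and over all genes 0% were called. Between stage 41 and stage 35/36 in cMO embryos the ghrh copies differed by -0.29 to 0.12 on the log2 scale and neither was called (edgeR, lowest adjusted p 0.648), in a comparison in which 38.3% of all genes were called at each cMO amount.

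No other hormone gene was called in cMO against uninjected embryos. Of the 8 copies, prl.1.L had 51 counts in all, with 15 libraries at 0, and prl.1.S had 23 counts with 26 libraries at 0, and both fell below the filter on low counts. The 6 others, pomc.L, pomc.S, cga.L, cga.S, prl.2.L and prl.2.S, were tested. The ghrh copies passed the filter through libraries of injected embryos, cMO and ERFE morpholino, since no uninjected library had more than 7 counts of either copy. Over both cMO amounts and 3 stages against uninjected, 0 of 36 tests were called by edgeR, with 0 at an unadjusted p under 0.05, and DESeq2 also called 0 with 0 at that level. Over all genes 0.00995% of such tests were called (19 of 190902). Most of these 19 were of ghrh, whose values chose it, and of rpn2, a gene beside ghrh.L described below. The share over the remaining genes is thus lower still. With the replicate block 0.0419% of all tests and 0 of the 36 were called. With so few calls over all genes, 0 of 36 does not set these hormone genes apart.

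pomc.L, the pomc copy with more counts, overlapped between cMO and uninjected embryos at stages 35/36 and 41. At stage 35/36 it was at 3.97, 4.59 and 2.94 CPM with 10 ng cMO and at 5.16, 3.64 and 3.06 CPM with 20 ng cMO, against 3.55, 3.71 and 3.95 CPM in uninjected embryos. At stage 41 it was at 9.37, 10.8 and 8.39 CPM with 10 ng cMO and at 7.25, 10.7 and 7.69 CPM with 20 ng cMO, against 8.49, 11.0 and 8.66 CPM in uninjected embryos. The cMO libraries lay on both sides of the uninjected ones at these stages. At stage 37/38 the groups did not overlap for 20 ng: pomc.L was at 6.05, 5.44 and 4.49 CPM with 20 ng cMO, against 3.19, 4.12 and 3.9 CPM in uninjected embryos, a log2 difference of 0.51 ± 0.32 (standard error) that was not called.

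cga.S and prl.2.S gave the other 2 of the 3 pairs whose groups did not overlap, both lower with cMO. cga.S at stage 35/36 was at 0.257, 0.36 and 0.485 CPM with 10 ng cMO, against 0.605, 0.493 and 0.772 CPM in uninjected embryos (log2 -0.75 ± 0.41), and prl.2.S at stage 37/38 with 20 ng cMO differed by -0.84 ± 0.63. Neither was called, and the 3 of 36 pairs stand beside the 6.01% over all genes. Across the 36 pairs the log2 differences ran from -0.84 to 0.58, with 95% intervals that reached from -2.55 to 1.74. On the ratio scale, a change as large as the ghrh ratios lies outside those intervals. Changes of 2-fold in single comparisons lie inside some of them. The ghrh ratios were taken against uninjected levels near the floor, so the same rise in CPM would be a smaller ratio for pomc. At stage 37/38 with 20 ng cMO, mean ghrh.L was 3.24 CPM, against 0.131 CPM in uninjected embryos. Mean pomc.L was 5.33 CPM, against 3.74 CPM, and at stage 41 8.56 CPM, against 9.39 CPM. Whether the other hormone genes share a rise of that size in CPM was not tested.

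With the 6 cMO groups set against the 3 uninjected groups, the log2 differences, cMO minus uninjected, were all within 0.19 of 0. They were 0.15 for pomc.L (95% interval -0.18 to 0.47), 0.06 for pomc.S (-0.33 to 0.45), 0.19 for cga.L (-0.19 to 0.57), -0.03 for cga.S (-0.41 to 0.35), 0.06 for prl.2.L (-0.80 to 0.91) and -0.08 for prl.2.S (-0.66 to 0.50). None was called by edgeR (adjusted p 1 for each; 0.62 to 1 over the alternatives), with 0 at an unadjusted p under 0.05 and 0 by DESeq2, in a comparison where 0.154% of all genes were called. With the replicate number as a block within stage, 1.49% of all genes and again 0 of the 6 were called.

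**Figure D2:**
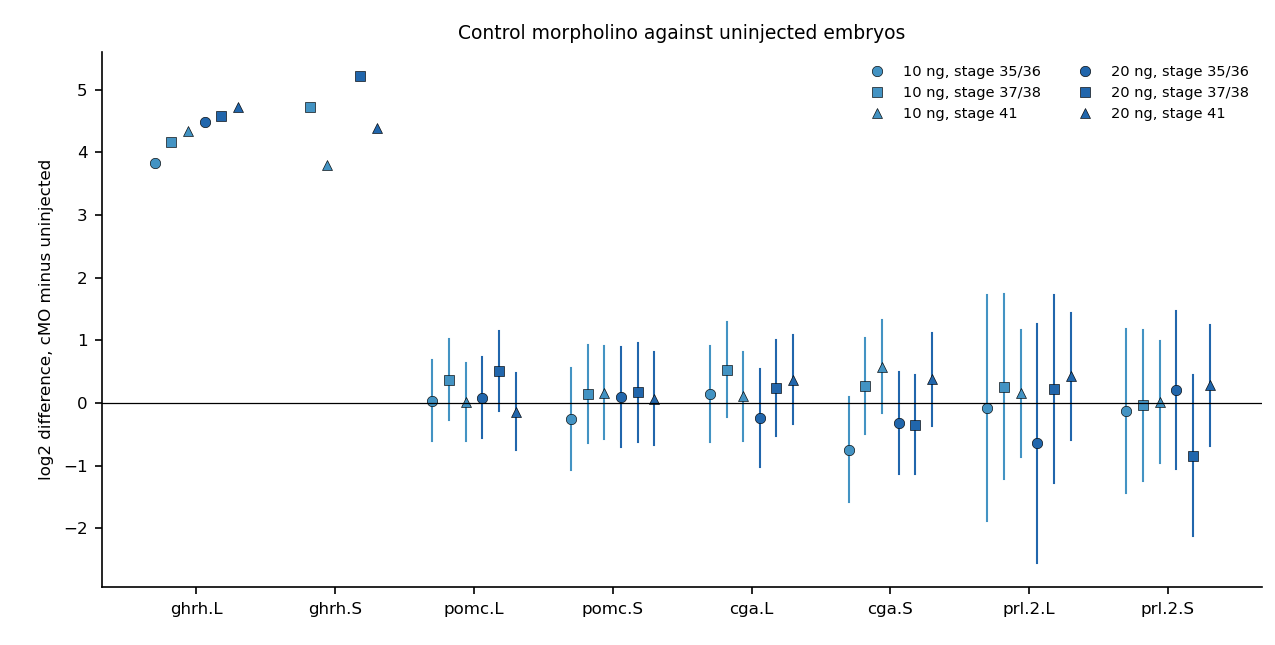
Log2 difference of each hormone gene, cMO minus uninjected, by amount and stage, with 95% intervals for the genes tested. The ghrh copies are drawn without intervals because these values chose them, and ghrh.S at stage 35/36 is left out because the uninjected group had 0 counts; the other genes lie between -0.84 and 0.58.

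Under the ERFE morpholinos, too, no other hormone gene passed the test at a single stage. Of 36 tests of ERFE MO1 against 10 ng cMO and ERFE MO2 against 20 ng cMO, 0 were called by edgeR and 1 was at an unadjusted p under 0.05; DESeq2 gave 0 and 1, and 0.504% of all such gene tests were called. The lowest p was that of cga.S with ERFE MO1 at stage 37/38, at 0.548, 0.52 and 0.294 CPM with ERFE MO1, against 1.0, 1.52 and 0.543 CPM with 10 ng cMO, with log2 -1.17 ± 0.39 and an edgeR adjusted p of 0.257. Its groups overlapped by a single library. With the replicate block, under which 4.58% of all such tests were called, the adjusted p was 0.058, and with the block and without the doubted library it was 0.018, the lowest over the alternatives, whose highest was 0.89. The groups did not overlap in 2 of the 36 pairs, beside 11.8% over all genes: cga.S with ERFE MO2 at stage 37/38 (-0.47 ± 0.39) and prl.2.S with ERFE MO2 at stage 41 (-0.49 ± 0.48). The doubted library moved the ERFE MO2 differences at stage 35/36. With the block, cga.S differed by -0.63 ± 0.41 with that library and -1.76 ± 0.48 without it (edgeR adjusted p 0.53 and 0.066). Without the block and that library it was -1.59 ± 0.51 (0.44). With the block, pomc.S went from 0.25 ± 0.31 to -0.15 ± 0.38 and prl.2.L from 1.51 ± 0.80 to 0.51 ± 1.08, none called.

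Pooled over stages and both morpholinos, pomc.S and cga.S were near the threshold in opposite directions. pomc.S at stage 41 was at 11.0, 7.34 and 3.7 CPM with ERFE MO1 and at 7.62, 5.45 and 3.4 CPM with ERFE MO2, against 6.28, 4.41 and 4.11 CPM with 10 ng cMO and 5.2, 5.16 and 3.49 CPM with 20 ng cMO. Replicate 1 was the highest and replicate 3 the lowest library of each ERFE group, and the groups overlapped. The pooled log2 difference of pomc.S, ERFE morpholinos minus cMO, was 0.41 ± 0.15 with an edgeR adjusted p of 0.085, over alternatives from 0.019 with the replicate block to 0.22 without the doubted library.

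The pooled difference of cga.S was -0.46 ± 0.16 with an edgeR adjusted p of 0.062. It was -0.45 ± 0.15 with the block (0.022), -0.61 ± 0.16 without the doubted library (0.0095) and -0.64 ± 0.14 with both changes (0.00072), and 0.12 was the highest over the alternatives. Over all genes 10.5% were called in this pooled comparison, and 26.6% with the block. The other 4 differences were -0.23 ± 0.15 for cga.L, 0.12 ± 0.13 for pomc.L, 0.34 ± 0.27 for prl.2.L and 0.18 ± 0.23 for prl.2.S, and none was called with or without the block (edgeR, lowest adjusted p 0.14 over alternatives).

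**Figure D3:**
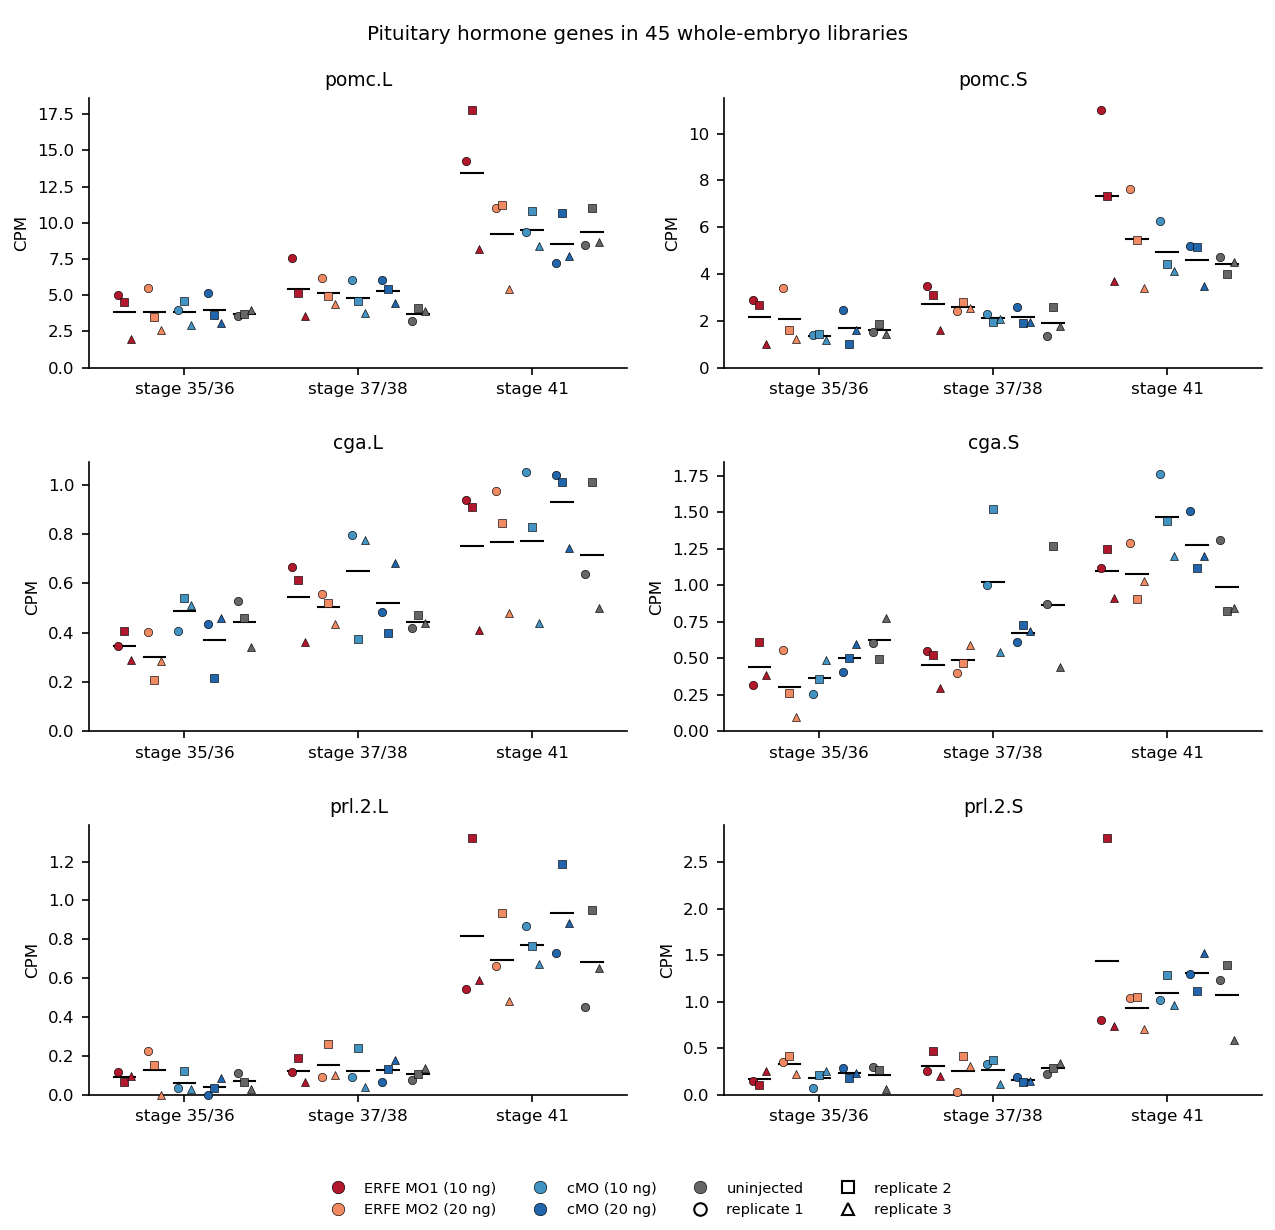
pomc, cga and prl.2 copies in each library, in CPM, by stage and condition; points are libraries, with a symbol per replicate number, and short lines are group means. The pomc, cga and prl.2 copies have higher group means at stage 41 than at stage 35/36 in every condition, while the cMO and uninjected libraries overlap in all but 3 of the 36 pairs.

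In uninjected embryos, pomc.L, pomc.S, prl.2.L and prl.2.S rose between stages 35/36 and 41, while the prl.1 copies were too low to test. pomc.S was at 4.71, 4.0 and 4.52 CPM at stage 41, against 1.51, 1.87 and 1.43 CPM at stage 35/36, and prl.2.L at 0.449, 0.953 and 0.654 CPM, against 0.113, 0.0657 and 0.0286 CPM. prl.2.S was at 1.23, 1.4 and 0.592 CPM at stage 41, against 0.303, 0.263 and 0.0572 CPM at stage 35/36. The stages did not overlap for any of these genes, nor for pomc.L, whose values are given above; over all genes 24.8% lay higher at stage 41 without overlap.

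Of the 6 tested hormone genes other than ghrh, 4 were called higher at stage 41 than at stage 35/36, where 43.1% of all genes were called and 21.4% were called higher. The log2 differences were 1.33 ± 0.32 for pomc.L (edgeR adjusted p 9.7e-04, 4.8e-06 to 0.0078 over the alternatives), 1.46 ± 0.39 for pomc.S (0.0026, 5.6e-05 to 0.016), 3.31 ± 0.67 for prl.2.L (1.6e-04, 4.1e-06 to 0.0029) and 2.40 ± 0.56 for prl.2.S (8.2e-04, 1.7e-04 to 0.012). cga.L (0.70 ± 0.37, adjusted p 0.126, 0.02 to 0.54) and cga.S (0.65 ± 0.38, adjusted p 0.174, 0.057 to 0.46) were not called by edgeR.

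The interval was then split at stage 37/38. Between stages 37/38 and 35/36, 0 of the 6 were called by edgeR, with 0 at an unadjusted p under 0.05, beside 0.0723% of all genes. With the replicate block 0 of the 6 were called, beside 5.44% of all genes. Between stages 41 and 37/38 the same 4 copies were called higher, beside 30.1% of all genes called, with log2 differences of 1.33 for pomc.L, 1.2 for pomc.S, 2.64 for prl.2.L and 1.90 for prl.2.S. With the block 4 of the 6 were called higher there, beside 47.7% of all genes called. In uninjected embryos ghrh.S had 8 counts at stage 41, against 0 at stage 35/36, and ghrh.L had 10 counts at stage 41, against 13 at stage 35/36. No stage test of ghrh in uninjected embryos is given, since ghrh passed the filter only through libraries of injected embryos.

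The pomc and prl.2 copies also rose over the stages in cMO embryos. With 10 ng cMO, 5 of the 6 were called higher at stage 41 than at stage 35/36, and with 20 ng cMO 6 of 6, beside 38.3% of all genes called at each amount. cga.S rose by 1.97 ± 0.40 with 10 ng and 1.34 ± 0.39 with 20 ng, and cga.L by 1.31 ± 0.37 with 20 ng, while its 10 ng difference of 0.66 ± 0.36 was not called. Tests of the difference itself, between ERFE MO1 and ERFE MO2 responses and between stage 41 and stage 35/36 responses, called 0 of 42, with 2 at an unadjusted p under 0.05, beside 0.00673% of all such gene tests; 0 of 42 were called with the block, beside 0.204%. These 2 were the stage difference in the cga.S response to 10 ng cMO (1.32 ± 0.55) and in the prl.2.L response to ERFE MO2 (-2.0 ± 0.98), with an edgeR adjusted p of 1. Without the doubted library that prl.2.L difference was -0.98 ± 1.21, and 0 of 42 were called, with 3 at an unadjusted p under 0.05, all of cga.S.

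**Figure D4:**
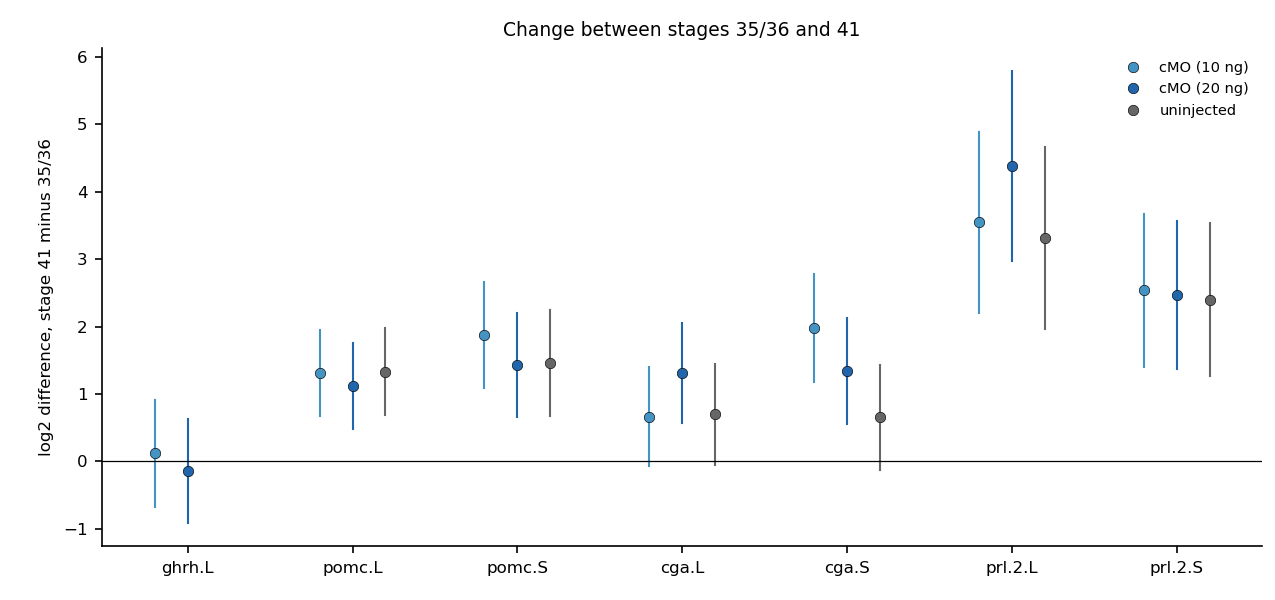
Log2 difference of ghrh.L and the other tested hormone genes, stage 41 minus stage 35/36, with 95% intervals, in 10 ng cMO, 20 ng cMO and uninjected embryos. The intervals of the pomc and prl.2 copies lie above 0 in all of these groups, and those of ghrh.L, shown for cMO embryos alone, include 0; ghrh.S is not drawn.

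The genes beside ghrh were read to see whether the rise was shared along the chromosome. In the RefSeq gene table (assembly Xenopus_laevis_v10.1, used for gene order only, since no source used here gives the build of the counts), ghrh.L lies between manbal.L and rpn2.L, with blcap.L, src.L and emilin3.L farther out. ghrh.S was not matched there, and the .S copies of these genes were taken in its place. No flanking gene was called higher with cMO. rpn2, which encodes ribophorin II, a subunit of the complex that attaches N-linked sugars to proteins in the endoplasmic reticulum, was lower, and was the nearest neighbour on one side.

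rpn2.L was at 129 to 186 CPM with the ERFE morpholinos (median 157), 79.9 to 146 CPM with cMO (median 103) and 164 to 201 CPM in uninjected embryos (median 183), and rpn2.S at 140 to 214 (median 186), 82.4 to 152 (median 111) and 161 to 234 CPM (median 197). Every cMO library lay below every uninjected one for both copies. All 6 comparisons at 20 ng were called by edgeR, with log2 differences, cMO minus uninjected, of -0.81 to -0.94. The 6 comparisons at 10 ng gave -0.64 to -0.73; edgeR called 0 of them, with 6 at an unadjusted p under 0.05, DESeq2 called 2 and edgeR with a lane term 3. With the block all 12 comparisons were called. Over all genes 0.00995% of the tests of cMO against uninjected embryos were called by edgeR, and 0.0419% with the block. These shares include the calls of rpn2 itself (6 of 19, and 12 of 80 with the block) and of the ghrh copies. They are therefore no separate yardstick for rpn2. Pooled, rpn2.L differed by -0.77 ± 0.07 and rpn2.S by -0.78 ± 0.07 (edgeR adjusted p 8.8e-09 for each, at most 8.7e-08 over the alternatives). rpn2 was known from earlier results of these data before the flanking genes were read, so its tests here are no independent support.

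The 8 other flanking genes gave 0 of 48 called by edgeR, with 0 at an unadjusted p under 0.05 (0 and 4 with the block), and 2 of 48 pairs did not overlap. Over all genes 0.00995% of such tests were called, 0.0419% with the block, and 6.01% of pairs did not overlap. With call shares this low, 0 of 48 called does not set these genes apart. In ERFE morpholino against cMO embryos, a comparison that shares its cMO libraries with the one above, rpn2 was higher, with log2 differences of 0.34 to 0.76 and no overlap in all 12 comparisons, of which 5 were called, 11 with the block and 4 without the doubted library (rpn2.S with ERFE MO2 at stage 35/36, edgeR adjusted p 0.077 without it and 0.049 with it). Over all genes 11.8% of such pairs did not overlap in either direction, and 0.504% were called, 4.58% with the block. In ERFE morpholino against uninjected embryos, the rpn2 differences were -0.35 to 0.04, with 0 of 12 called by edgeR and 3 at an unadjusted p under 0.05; in 7 of the 12 the ERFE morpholino libraries all lay lower than the uninjected ones, beside 6.35% of all genes. Around pomc, 0 of 54 tests of the flanking genes dnajc27, efr3b, stmn4, ptk2b and chrna2 were called between cMO and uninjected embryos, with 0 at an unadjusted p under 0.05, beside 0.00995% called over all genes. The TruSeq kit named in the labels does not mark strand, so reads from overlapping neighbours on opposite strands could not be separated; whether this bears on ghrh or rpn2 was not tested.

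**Figure D5:**
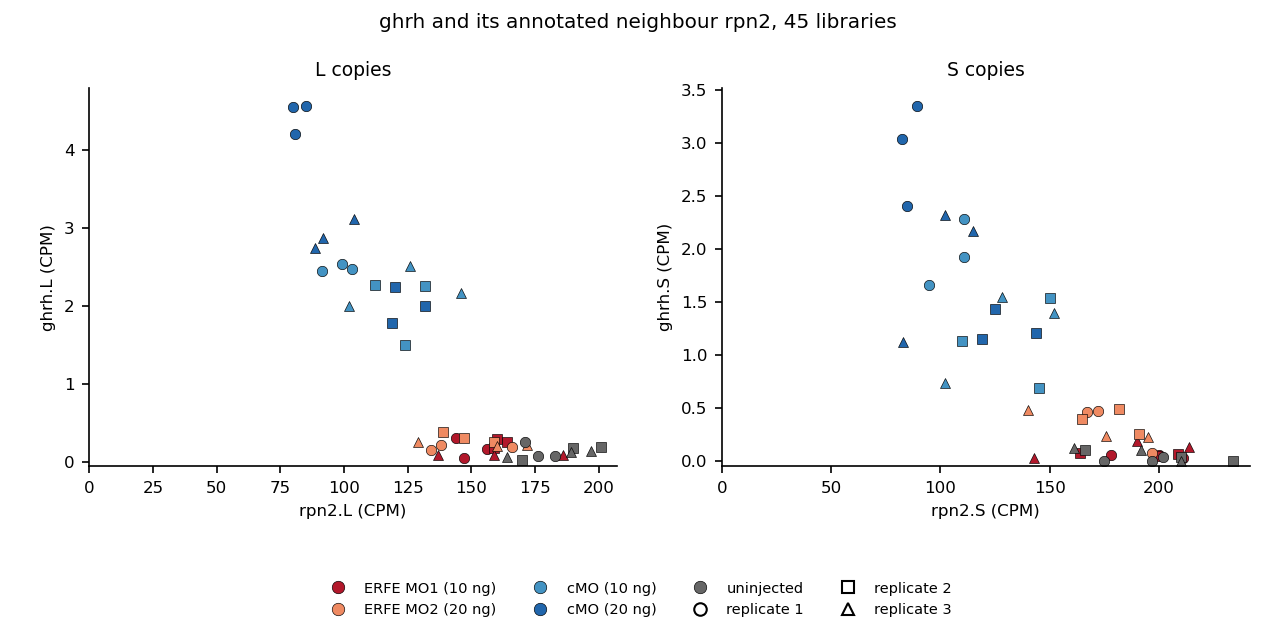
ghrh (vertical axis) against rpn2 (horizontal axis) in each library, both in CPM, coloured by condition with a symbol per replicate number, for the .L and the .S copies. All 18 cMO libraries have more ghrh than the 27 others and less rpn2 than the uninjected libraries; in rpn2 they partly overlap the ERFE morpholino libraries.

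Within the cMO groups, the library with the most ghrh.L was also that with the least rpn2.L in 5 of 6 groups, and for the .S copies in 6 of 6; these were replicate 1 libraries. The library with the least ghrh.L had the most rpn2.L in 4 of 6 groups, and for the .S copies in 3 of 6. Over the 18 cMO libraries, with stage means subtracted, Pearson's r with ghrh.L was 0.877 for ghrh.S, -0.833 for rpn2.L and -0.871 for rpn2.S, and over the 27 other libraries 0.311, -0.288 and 0.06. The libraries fall into these 2 separate sets, and they share injection amounts and replicate numbers, so these values only describe them. Over all 45 libraries the genes most like ghrh.L were ghrh.S (r 0.915), erlin2.L (0.898), chmp7.L (0.862) and the unnamed models Xelaev18014864m.g (0.855) and Xelaev18004187m.g (0.844), and those most opposed were rpn2.S (-0.91), rpn2.L (-0.883) and nap1l4.S (-0.845). These likenesses rest on the same libraries that chose ghrh.

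erlin2, an endoplasmic reticulum membrane protein of the degradation pathway in human cells, had its .L copy at a median of 49.2 CPM with 10 ng cMO and 50.2 CPM with 20 ng cMO, against 37 CPM in uninjected embryos; it was at 35.4 CPM with each ERFE morpholino. chmp7.L, a subunit of the ESCRT-III membrane remodelling machinery, was at 15.2 and 17.8 CPM with 10 ng and 20 ng cMO, against 10.8 CPM in uninjected embryos. pomc.S had an r of -0.095 with ghrh.L. The genes most like pomc.L over the 45 libraries were pomc.S (0.749), LOC100488924.L (0.733), spag6.S (0.729), adprh.S (0.723) and fuca1.L (0.712).

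Growth hormone, the pituitary product that GHRH releases, was not called with cMO. The 2 copies of gh1 differed between cMO and uninjected embryos by -0.22 (95% interval -1.09 to 0.65) for gh1.L and 0.24 (-0.82 to 1.31) for gh1.S, and neither was called by edgeR (adjusted p 1). With stage gh1.L rose by 3.85 ± 0.69 (adjusted p 3.8e-05) and gh1.S by 6.13 ± 0.98 (adjusted p 8.7e-06, from 99 counts at stage 41 against 1 at stage 35/36). At stage 41 gh1.L had 140 counts with 10 ng cMO and 103 with 20 ng cMO, against 116 in uninjected embryos. For gh1.S these were 127 and 129 counts, against 99. At the earlier stages no cMO or uninjected group had more than 12 counts of either copy, so the pooled differences say little about those stages. No row matched the GHRH receptor ghrhr, which is not analysed here, and ghr.S, a copy of the growth hormone receptor gene, rose with stage by 0.74 ± 0.18 (edgeR adjusted p 9.6e-04), while ghr.L differed by 0.05 ± 0.17 (adjusted p 0.85).

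The other hormones and pathway genes were read from lists. Whole-embryo counts do not show in which tissue a listed gene was expressed, so the list names do not place a change in the hypothalamus or pituitary. Of 42 tested copies of hypothalamic peptide genes (26 of 28 listed genes had a row), 0 were called between pooled cMO and uninjected embryos, with a median log2 difference of -0.01, beside 0 over all genes; of 13 pituitary hormone copies 0 were called, with a median of 0.06. Among the named genes of these lists the differences reached 0.99 ± 0.37 for tshb.S, the thyrotropin beta subunit (edgeR adjusted p 0.75), and 0.87 ± 0.35 for npvf.L, the precursor of the gonadotropin-inhibitory peptides (adjusted p 0.80). With the replicate block 0 of the 42 and 0 of the 13 were called. Pituitary and hypothalamic transcription factors (22 and 30 copies), prohormone processing (26), the secretin family (16) and steroid synthesis (8) had 0 called by edgeR with and without the block. The block added 1 call each to the growth hormone and IGF list (igfbp2.S, an IGF-binding protein, higher by 0.56), the hormone receptors (sstr5.S, a somatostatin receptor, higher by 0.27) and the melanophore genes (tyr.S, tyrosinase, higher by 0.28), of 26, 37 and 19 tested, beside 1.49% of all genes. Among the markers of other tissues the block also called 3 of 8 skeletal muscle genes lower and 2 of 15 epidermis genes higher; their part in these values was not tested.

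Between ERFE morpholinos and cMO, pooled, the hypothalamic peptides had 0 of 42 called by edgeR and the pituitary hormones 1 of 13. This was lhb.L, the luteinizing hormone beta subunit (0.26 ± 0.07, edgeR adjusted p 0.016). Its mean level was 14.4 CPM, against 0.953 CPM for lhb.S, and the tissue it came from was not tested. With the block 2 of the 42 and 3 of the 13 were called. Over all genes 10.5% were called in this comparison, and 26.6% with the block. The growth hormone and IGF list had 6 higher and 1 lower of 26, among them igfbp2.S (0.97 ± 0.15, adjusted p 2.1e-05), igfbp1.S (0.63, 3.1e-05), igfbp1.L (0.59) and igf2.S (0.26), and 14 called with the block. The hormone receptors had 3 of 37 called, the luteinizing hormone receptor lhcgr.L higher (1.32) and the CRH receptor crhr2.L (-0.40) and the melanocortin receptor mc5r.S (-0.47) lower, and 8 with the block, shares below those over all genes. In steroid synthesis, the pathway that ACTH drives, cyp21a2.1.L (-1.64) and cyp11a1.S (-1.01), both enzymes of that pathway, were lower, 2 of 8 tested. Liver marker genes were lower in 7 of 10 tested in the same comparison, with a median of -0.60; whether the liver bears on the IGF-binding protein or steroid values was not tested.

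With stage, in uninjected embryos, 22 of the 42 hypothalamic peptide copies were called higher by edgeR and 1 lower (median 0.72, beside 0.01 over all genes; 21.4% of all genes were called higher and 21.7% lower), and 8 of the 13 pituitary hormone copies were called higher (median 1.46). The peptides vip, with vip.L higher by 1.60 and vip.S by 1.66, and adcyap1, with adcyap1.L higher by 1.19 and adcyap1.S by 0.98, are relatives of GHRH in the secretin family, of which 11 of 16 copies were called higher. Of the hypothalamic transcription factors 13 of 30 were lower and 0 higher, and of the pituitary factors 5 of 22 were lower and 1 higher. Neuronal markers had 7 higher and 7 lower of 20, with a median of 0.04, and eye markers were higher in 9 of 9. The hormone receptors had 15 higher and 2 lower of 37. In which tissues of the whole embryo these listed genes rose or fell was not tested.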

How the data were processed

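RNA-seq of 45 whole-embryo libraries was analysed (3 stages, 5 conditions, 3 libraries each). The deposited values are raw read counts per gene. Per the submitters' processing notes the tools included bcl2fastq 2.17.1.14, FastQC 0.11.5, STAR 2.5.2a, featureCounts 1.5.0-p1 and DESeq2 1.8.2; no source used here gives the build, the annotation or the treatment of multi-mapping reads. Hormone genes, gene lists and tests were chosen with earlier results of these data known.

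Counts were scaled by TMM (factors 0.936 to 1.07), filtered with filterByExpr (count minimum 10; 31817 genes kept, with 99.97% of counts) and tested with edgeR 4.0.16 in R 4.3.3, by the quasi-likelihood test over all 45 libraries with 1 term per group. P-values were adjusted by Benjamini-Hochberg over all genes of a comparison, and a gene was called at an adjusted p under 0.05. Errors are standard errors, and levels are CPM with TMM scaling. The replicate number within stage was added as a block in an alternative. Same-numbered libraries deviated together in 44 of 45 pairs (r over 0.1, median 0.503), and the remaining pair (0.078) holds the doubted library; without it 44 of 44 did (lowest 0.316). The numbers come from the labels. The common coefficient of variation between libraries in edgeR was 0.2 in the main fit and 0.11 with the block. A gene not called in the main fit can therefore be called with the block. The method was tested on simulated data without replicate pairing, with changes placed only in genes above a minimum mean CPM. That simulation does not show how the test does at low counts.

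The genes named are the hormone genes, up to 3 neighbours on each side of ghrh and pomc, up to 4 genes per list and comparison with the smallest p, and the 5 most like and 3 most opposed to ghrh.L and pomc.L. Alternatives were DESeq2 1.42.0, its size factors in edgeR, no gene filter, each stage alone, a lane term, the block, leaving out the doubted library, and leaving out each library in turn. The block with that library left out, and the differences of responses without it, were chosen after seeing the data. In RefSeq, 8 of the 10 hormone genes matched by symbol. Sequences were not used here.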

Additional observations from a re-analysis of the deposited data

How the results depend on the processing

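Counts of hormone genes other than ghrh called between cMO and uninjected embryos, by stage or pooled, and of hormone genes called between 20 ng and 10 ng cMO, were 0 in all 53 alternatives. Of these alternatives 45 leave out 1 library each and otherwise repeat the main fit. With each stage alone, some prl.2 tests fell below the count filter. There 30 of the 36 tests against uninjected, 30 of the 36 ERFE morpholino tests and 21 of the 24 amount tests were run. The count called between ERFE morpholinos and cMO was 0 in 52 and 1, cga.S with ERFE MO1 at stage 37/38, with the replicate block and without the doubted library; leaving out 1 library each gave 0. Hormone genes other than ghrh called between stages 41 and 35/36 in uninjected embryos numbered 4, over all alternatives 4 to 5 (4 with 1 library left out); the lane term added cga.L (0.98, edgeR adjusted p 0.02). Flanking genes of ghrh called, 6, were 12 with the replicate block, 12 with the block and without the doubted library, 2 with each stage alone, 9 with the lane term, 8 with DESeq2 and 4 to 6 with 1 library left out. Stages alone leave fewer libraries and degrees of freedom; the other causes were not tested.

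Pooled cMO differences near 0 changed sign when 1 library was left out, over ranges of -0.14 to 0.10 for cga.S, 0 to 0.15 for pomc.S, -0.14 to 0.22 for prl.2.L and -0.24 to 0.04 for prl.2.S. Pooled ERFE morpholino differences near the threshold were called in some settings. cga.S was called with the lane term (edgeR adjusted p 0.044), with DESeq2 (adjusted p 0.046), and, beside the doubted library, without ERFE MO1 stage 35/36 replicate 2 (-0.51, edgeR adjusted p 0.04), 10 ng cMO stage 37/38 replicate 3 (-0.50, 0.038) or uninjected stage 37/38 replicate 3 (-0.46, 0.05 after rounding). pomc.S was called with the lane term (edgeR adjusted p 0.03) and without ERFE MO1 stage 35/36 replicate 3 (0.47, 0.033), ERFE MO2 stage 35/36 replicate 3 (0.46, 0.048) or ERFE MO1 stage 41 replicate 3 (0.47, 0.038). The pooled log2 difference of ghrh.L ran over 4.18 to 4.77. Without centring on stage means, the r of rpn2.S with pomc.L was -0.265, against 0.022. Low counts limit prl.1, prl.2, cga and, outside cMO, ghrh.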
